A study of Mus musculus with 12 samples.

Results

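The 35 genes described here make fatty acids and assemble them into triglycerides. They were chosen by symbol from a written list, and all 35 were found among the 17922 genes listed in the table. They fall into 5 roles: 6 genes of malonyl-CoA and NADPH supply with the synthase itself, 11 of elongation, 5 of desaturation, 3 transcription regulators, and 10 of triglyceride assembly and remodelling.

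Cells build fatty acids from acetyl-CoA, which ATP citrate lyase makes in the cytoplasm from citrate exported by mitochondria. Acetyl-CoA carboxylase turns acetyl-CoA into malonyl-CoA, and fatty acid synthase joins malonyl units into palmitate with NADPH as the reductant. Palmitate is then lengthened in the endoplasmic reticulum, desaturated, and attached step by step to a glycerol backbone to form triglyceride. SREBP-1 (gene Srebf1) and ChREBP (gene Mlxipl) are the transcription factors best known for switching these genes on, mainly in liver and fat. Cartilage has few blood vessels, and its cells are known for a strongly glycolytic metabolism.

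RNA-seq was performed on primary chondrocytes, the cells of cartilage, taken from mouse ribs by collagenase digestion and cultured overnight in medium with fetal calf serum. The 4 groups held 3 samples each. LDH knockout cells came at postnatal day 5 from Col2-Cre:Ldha(fl/fl):Ldhb+/- mice, in which a Cre recombinase driven by a collagen II promoter removes Ldha in cartilage cells and which are labelled as lacking 1 allele of Ldhb. Acly knockout cells came at embryonic day E18.5 from Col2-Cre:Acly(fl/fl) mice, which lose ATP citrate lyase in the same cells. Controls were littermates at the matching age, named by the labels as LDH or Acly controls with no further genotype, on a mixed background in which C57BL/6 dominated. Lactate dehydrogenase, built from Ldha and Ldhb subunits, regenerates NAD+ for glycolysis, so the study asked what follows from reduced glycolysis and from reduced cytoplasmic acetyl-CoA. The labels do not say whether each sample came from a separate animal, so p-values measure the spread between these samples. Because recombination depends on Cre, a knockout sample can also hold cells that kept the gene.

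Libraries held 26362407 to 28154143 expected counts, and levels are given as CPM, counts scaled to library size. A gene with 3 counts in a library has 0.107 to 0.114 CPM, taken here as a floor for counting error. Lower levels are printed where they occur but are uncertain. Ldha stood at 79.3, 88.8 and 92.1 CPM in LDH knockouts against 851, 792 and 894 CPM in their controls (log2 fold change -3.29; edgeR quasi-likelihood test, adjusted p = 3.26e-07). Ldhb stood at 14.6, 16.4 and 14.2 CPM against 12.3, 11.3 and 11.4 CPM, higher in every LDH knockout than in any control, and was not called (log2 fold change 0.37, adjusted p = 0.115). No lower Ldhb level was seen beside the labelled loss of 1 Ldhb allele, but the Ldhb genotype of the controls is not given. "LDH knockout" therefore names the label, and only its Ldha part was seen in the counts. Acly stood at 83.0, 52.5 and 87.0 CPM in Acly knockouts against 197, 192 and 202 CPM (log2 fold change -1.41, adjusted p = 0.0313). That call was lost without TMM scaling, which corrects for library makeup (adjusted p = 0.0564), with the summed level of 4 Y-linked genes as a covariate (0.0626), and when knockout 1 (0.0603), knockout 3 (0.0736), control 1 (0.109), control 2 (0.145) or control 3 (0.233) was left out, while the log2 fold change stayed between -1.54 and -1.21. LDH knockout 2 and Acly knockout 2 stood apart and are followed through the results. LDH knockout 2 had the highest sums of cartilage and fat cell marker genes in the LDH set, and Acly knockout 2 had a fibroblast marker sum of 1151 CPM against 2933 and 3086 CPM in the other Acly knockouts. Together, 4 genes of the Y chromosome gave 93.0, 102 and 0.590 CPM in LDH controls but at most 0.0367 CPM in every LDH knockout, so this signal differed along with the genotype. It was 0.0755, 74.3 and 82.8 CPM in Acly knockouts and 0.375, 121 and 2.83 CPM in Acly controls.

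As a sum, chondrocyte markers were abundant in all 12 samples. In LDH knockouts 6 of 9 tested members of the 10-gene list were called higher, where 2.49% of all genes were called (1.43% higher). Their summed level was 18893 to 28515 CPM in LDH knockouts and 10374 to 11989 CPM in controls. In the Acly set it was 15126 to 17606 CPM in knockouts and 9127 to 10057 CPM in controls, and 1 of 10 markers, Col2a1, was called higher beside 0.0573% of all genes. Fat cell markers, which matter here because fat cells make triglyceride, were scarce in the LDH set. Of 12 listed, 10 were tested and 6 were called higher in LDH knockouts, beside 1.43% of all genes: Adipoq, Plin1, Cidec, Cfd, Fabp4 and Car3. The marker lists were written with earlier results of these samples known, so such counts give no independent support. Cebpa, a transcription factor of fat cell formation on the same list, lay the other way, at 25.0 to 27.9 CPM in LDH knockouts and 29.1 to 40.4 CPM in controls, without overlap and without a call (log2 fold change -0.38, adjusted p = 0.129). The whole list summed to 104 to 160 CPM in LDH knockouts and 72.1 to 85.5 CPM in controls. Lep and Retn were at 0 in LDH controls 2 and 3 and in knockout 3, and Cidec in control 2. In the Acly set the same list summed to 288 to 579 CPM in knockouts and 334 to 393 CPM in controls, with Lep at 0 in all controls, none of 10 tested genes called by edgeR and none at an unadjusted p under 0.05. Osteoblast markers summed to 9.65 to 19.2 CPM in LDH knockouts, where Dmp1 was at 0, and to 35.4 to 46.6 CPM in controls. In RNA from a mixed culture, fewer cells of a type and less RNA per cell cannot be told apart.

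**Figure D1:**
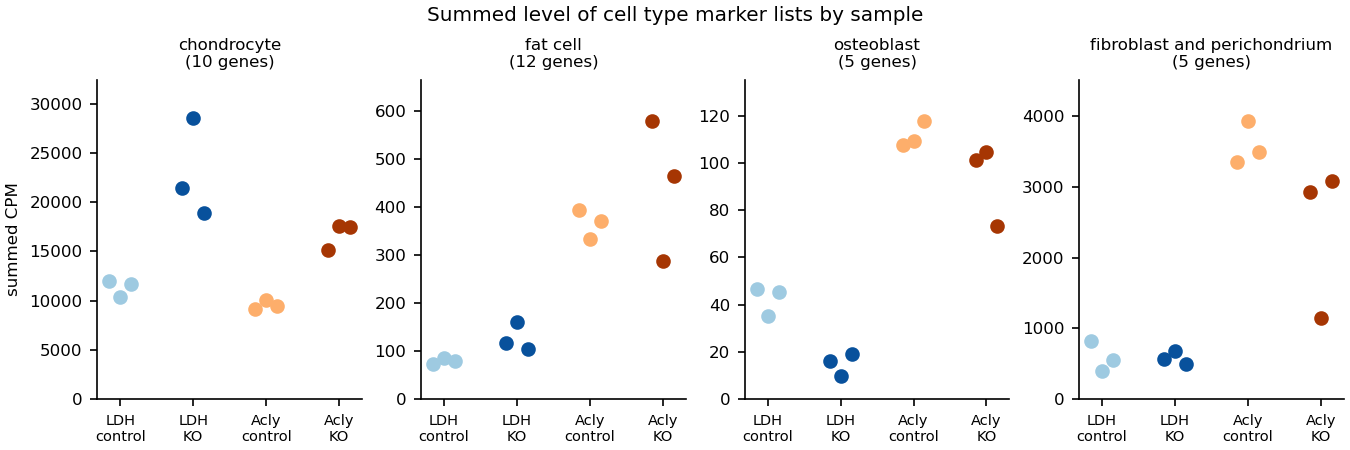
Summed level in CPM of the genes in 4 cell type marker lists, by sample; each point is 1 of 3 samples of a group. The fat cell sum is highest in LDH knockout 2 within the LDH set (160 CPM) and lowest in Acly knockout 2 within the Acly set (288 CPM).

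Levels of different genes were compared on the deposited TPM scale, which corrects for transcript length. Tecr, the trans-2-enoyl-CoA reductase that completes each elongation cycle, was the most abundant of the 35 genes in every group, at 290 ± 5.93 TPM in LDH controls and 438 ± 28.9 TPM in Acly controls (SD, n = 3). Agpat1, which adds the acyl chain that turns lysophosphatidic acid into phosphatidic acid, and Fads3, of the front-end desaturase family, followed in LDH controls at 190 ± 5.93 and 188 ± 2.04 TPM. Those 2 do not differ beyond their spread. Elovl1, an elongase of very long chains, stood at 169 ± 2.66 TPM, Me1, the malic enzyme that yields cytosolic NADPH, at 101 ± 14.8 TPM, and Dgat2, which forms triglyceride from diglyceride, at 85.8 ± 3.91 TPM. The core enzymes were lower per length: Fasn, the synthase, at 50.4 ± 1.68 TPM and Acaca, the main carboxylase, at 22.2 ± 1.15 TPM. At the bottom were Pnpla3 (0.277 TPM), Elovl2 (0.0433 TPM) and Thrsp (0.0233 TPM). Elovl2 and Thrsp were too low in the LDH set to be tested there, so 33 of 35 members were tested in the LDH comparison and 35 of 35 in the Acly comparison.

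The summed TPM of the 35 genes was 1658 to 1736 in LDH knockouts and 1600 to 1675 in LDH controls. In the Acly set it was 1916 to 1959 in knockouts and 1867 to 1942 in controls. Within each set the ranges overlapped, while every Acly set sample lay above every LDH set sample. TPM is scaled to library totals. With counts scaled that way, the median of all genes was 0.19 higher in Acly than in LDH controls on the log2 scale. With TMM scaling that median was 0.02, and the members' median was 0.08. The higher sums in the Acly set therefore do not show a rise particular to these genes. By role, the desaturation genes summed to 357, 388 and 320 TPM in LDH knockouts and 306, 301 and 285 TPM in controls. The triglyceride assembly genes summed to 426, 416 and 441 TPM in LDH knockouts and 442, 463 and 458 TPM in controls. The desaturation sums lay higher and the assembly sums lower in LDH knockouts with no overlap, though the closest assembly sums differed by less than 1 TPM. These sums were not tested and do not hold for every gene in them.

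In LDH knockouts most of the 35 genes lay near their control level, with 1 gene called higher and 1 lower. Scd1, which puts the double bond into stearate and palmitate, was 2.01-fold higher. Lpin3, a phosphatidate phosphatase that supplies diglyceride, was 1.98-fold lower. Both calls were lost with the Y-linked signal, which differed along with the genotype, as a covariate. These 2 calls of 33 members stand beside the 2.49% of all 13321 genes tested that were called, 1.43% higher and 1.07% lower. The members' median log2 fold change was -0.01 against 0.0051 for all genes, and 22 of 33 members lay within ±0.25, as did 70.5% of all genes. At an unadjusted p under 0.05 there were 8 members (5 higher, 3 lower) beside 19.6% of all genes, and 9 tested members did not overlap between groups (5 higher, 4 lower) beside 24.3% of all genes (11.9% and 12.5%).

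None of the 5 tested genes of malonyl-CoA and NADPH supply with the synthase was called in the LDH comparison by edgeR or DESeq2. Of all genes edgeR called 2.49%, a share at which no call among 5 says nothing particular about them. By edgeR 0 of the 5 had an unadjusted p under 0.05, beside 19.6% of all genes. Fasn stood at 243, 246 and 273 CPM in knockouts and 256, 265 and 275 CPM in controls, which is -0.06 ± 0.08 (SE) on the log2 scale. Acaca stood at 103, 122 and 112 CPM against 101, 104 and 102 CPM, and Me1 at 176, 176 and 165 CPM against 184, 179 and 151 CPM. Both pairs of groups overlapped, with log2 fold changes of 0.13 and 0.01. Acacb, the carboxylase isoform tied to mitochondria, was scarce, at 2.79 ± 0.499 CPM against 2.26 ± 0.277 CPM (SD, n = 3), with overlap and a log2 fold change of 0.30. Mid1ip1, which helps the carboxylase polymerise, differed by -0.01 on the log2 scale. Thrsp, its lipogenic paralogue, gave 0.0363, 0.224 and 0.183 CPM in knockouts and 0.0351, 0 and 0 CPM in controls, and was not tested there. In knockouts 2 and 3 it was above the level of 3 counts, and no fold is given.

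None of the 10 tested elongation genes was called in the LDH comparison, beside 2.49% of all genes. At that share, no call says nothing particular about these genes. None reached an unadjusted p under 0.05 (edgeR), beside 19.6% of all genes. DESeq2 called none of the 10 either. Their log2 fold changes ran from -0.48 for Elovl7, an elongase of long saturated chains, to 0.20 for Tecr. The Elovl7 value was -0.22 without knockout 2 and 0.32 with the Y-linked covariate. Elovl6, which takes palmitate to stearate, stood at 12.7, 13.3 and 14.3 CPM against 12.9, 14.9 and 10.6 CPM. Elovl5, an elongase of polyunsaturated chains, stood at 57.0, 56.2 and 50.8 CPM against 50.8, 49.5 and 43.5 CPM. Both elongases overlapped between groups. The dehydratases Hacd1, Hacd2 and Hacd3 differed by -0.07, 0.09 and -0.04 on the log2 scale.

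Of the 5 desaturation genes, 3 lay higher in every LDH knockout than in any control, beside 11.9% of all genes, and 1 of these was called, beside 1.43%. Scd1 (Entrez 20249) stood at 144, 250 and 129 CPM in LDH knockouts and 92.0, 92.0 and 75.4 CPM in controls. Every knockout exceeded every control, and knockout 2 was far above the other 2. The log2 fold change was 1.01 ± 0.22 (SE, n = 3 against 3; edgeR, adjusted p = 0.0428). Without knockout 2 it was 0.66 with adjusted p = 0.0309. The call was lost without knockout 1 (adjusted p = 0.0812), control 1 (0.0993), control 2 (0.0908) or control 3 (0.122), with the Y-linked signal as a covariate (adjusted p = 0.324, log2 fold change 1.28), and in the limma fits of FPKM with pseudocounts of 0.1 and 1 (adjusted p = 0.0620 and 0.0722), which makes 7 of 16 alternatives. Scd2, the stearoyl-CoA desaturase best known from brain, stood at 50.2, 67.2 and 48.6 CPM against 44.5, 36.6 and 32.0 CPM. Its groups did not overlap, with knockout 2 again highest, and its log2 fold change of 0.55 ± 0.15 was not called (adjusted p = 0.0864). Fads2, the delta-6 desaturase that opens the pathway to long polyunsaturated chains, stood at 21.5, 17.0 and 15.5 CPM against 14.4, 10.7 and 11.1 CPM. Here knockout 1 was highest and the groups again did not overlap, with a log2 fold change of 0.58 ± 0.16 (adjusted p = 0.0946). Fads1, the delta-5 desaturase that acts later in that pathway, stood at 81.9, 80.0 and 81.9 CPM against 80.1, 85.6 and 79.3 CPM. It differed by -0.01 ± 0.07. Fads3 differed by 0.12 ± 0.09, with overlapping groups.

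Fat cell and cartilage marker sums were also higher in LDH knockouts: the fat list was 104 to 160 CPM in LDH knockouts against 72.1 to 85.5 CPM. In Scd1, Scd2, Pnpla3 and both marker sums knockout 2 was highest and knockout 3 lowest. Fads2 had another order, at 21.5, 17.0 and 15.5 CPM, with knockout 1 highest. The part of these markers in the result was not tested. About 4.56% of Scd1 and 3.97% of Scd2 transcript sequence, read in stretches of 50 bases, is shared with other genes in the GENCODE M21 annotation, mainly Scd3, Scd4 and each other. Their counts were not whole in 12 and 10 of 12 samples. Counts that are not whole did not follow sharing in other members. Hacd3 shared 0% and was not whole in 7 samples, while Acaca shared 30.4% and was whole in every sample. How the authors' counting treated reads shared between the Scd paralogues is not given, so a part of each value is uncertain.

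**Figure D2:**
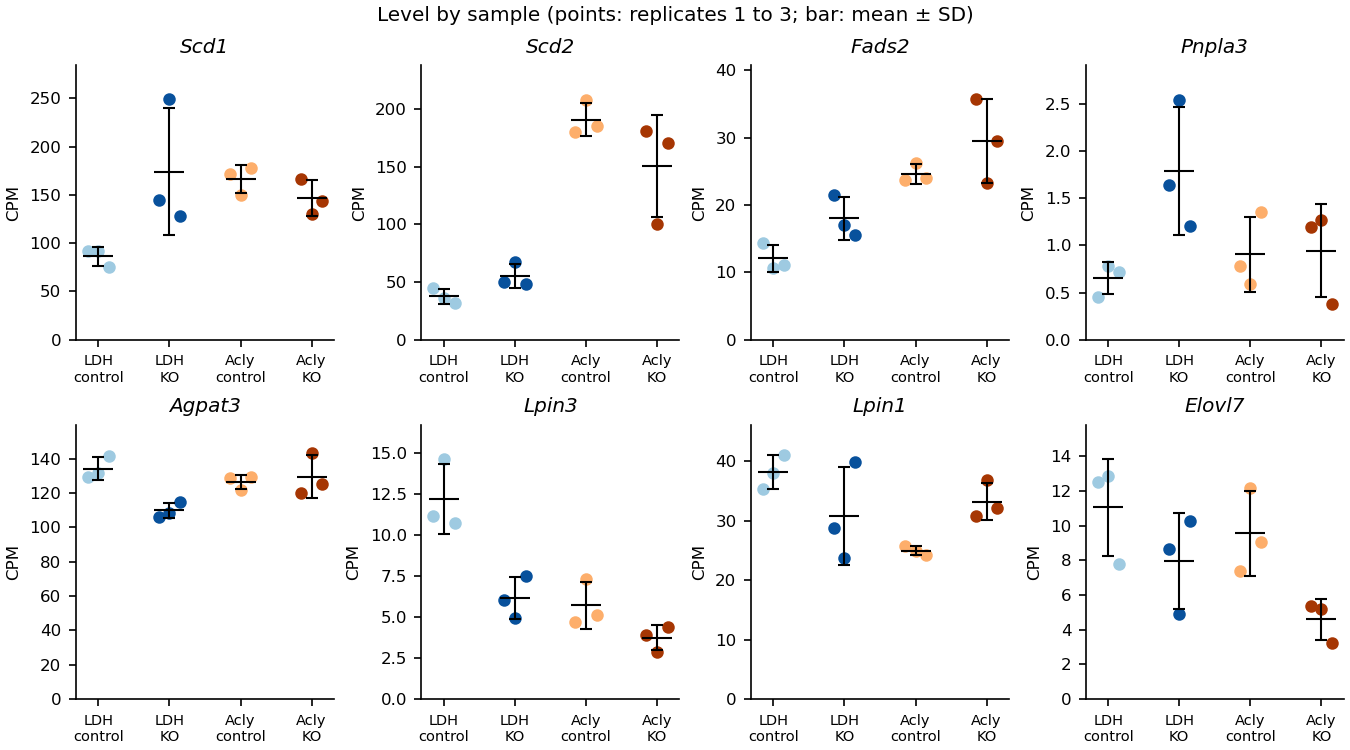
Level in CPM of 8 genes in each sample of the 4 groups; points are samples, bars the mean ± SD of 3, and CPM was scaled within each set of 6 samples. Scd1, Scd2, Fads2 and Pnpla3 of LDH knockouts lie above all LDH controls, and Agpat3 and Lpin3 lie below them.

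The regulators were not called in the LDH comparison, beside 2.49% of all genes called. Srebf1 stood at 118, 123 and 111 CPM in knockouts and 105, 94.8 and 105 CPM in controls. These groups did not overlap, with a log2 fold change of 0.21 ± 0.08 (unadjusted p = 0.0218, adjusted p = 0.173). Mlxipl, the glucose-responsive factor ChREBP, was near 1 CPM in every LDH sample, from 0.799 to 1.13 CPM in knockouts and 0.843 to 1.24 CPM in controls. Its relative Mlxip was far more abundant, at 49.1, 47.9 and 48.2 CPM against 53.9, 57.0 and 51.8 CPM. All 3 Mlxip knockout values lay below the controls (log2 fold change -0.16, adjusted p = 0.256).

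Among assembly genes, Lpin3 (Entrez 64899) stood at 6.03, 4.96 and 7.53 CPM in LDH knockouts and 11.2, 14.7 and 10.8 CPM in controls. Every knockout lay below every control, with knockout 2 lowest. The log2 fold change was -0.98 ± 0.19 (SE; edgeR, adjusted p = 0.0273). The call was lost without knockout 1 (adjusted p = 0.119), knockout 2 (0.0935), control 1 (0.0606), control 2 (0.0842) or control 3 (0.0614), and with the Y-linked covariate (adjusted p = 0.403, log2 fold change -0.67). Leaving out knockout 3 kept it (adjusted p = 0.0105). The other lipins act on the same substrate. Lpin1, the lipin also known as a transcriptional coactivator, stood at 28.7, 23.7 and 39.9 CPM against 35.3, 38.0 and 41.0 CPM, with overlap. Lpin2 stood at 26.5, 30.8 and 32.1 CPM against 33.7, 36.2 and 34.3 CPM, without overlap (log2 fold change -0.22, adjusted p = 0.227).

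Agpat3, an acyltransferase that adds polyunsaturated chains to lysophospholipids, stood at 106, 109 and 115 CPM in LDH knockouts and 130, 132 and 142 CPM in controls. The spread within each group was small and the groups did not overlap, with a log2 fold change of -0.29 ± 0.07 (adjusted p = 0.0714). Pnpla3, a lipid droplet protein that is a classic SREBP-1 target in liver, stood at 1.63, 2.53 and 1.21 CPM against 0.457, 0.777 and 0.713 CPM. It was higher in each knockout than in each control at a low level (log2 fold change 1.46 ± 0.36, adjusted p = 0.0656). On FPKM with a pseudocount of 1, which shrinks low values, the difference was 0.28, and with the Y-linked covariate adjusted p was 0.508. DESeq2 called Agpat3, Fads2, Pnpla3 and Scd2 besides Scd1 and Lpin3, at adjusted p of 0.0191, 0.0191, 0.0201 and 0.00835 for the first 4. Over all genes DESeq2 called 902 where edgeR called 332. Without LDH knockout 3 edgeR called these 6 members and Lpin1. The count over all genes also moved when a sample was left out, as given with the alternatives below. The 2 enzymes of the last step, Dgat1 and Dgat2, differed by -0.04 and 0.06 on the log2 scale. Gpam, which starts glycerolipid synthesis, Agpat1 and Agpat2 differed by -0.09, -0.06 and 0.16, all with overlapping groups.

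Promoter sequence is shown for Lpin3, the called gene for which windows were found, and for Fads2 and Pnpla3, picked from the members higher in every LDH knockout. Srebf1, also higher in every LDH knockout, is not shown. Agpat3, lower in every LDH knockout, is not shown either, and its window held none of the motifs named below. The windows are the 250 bases upstream of RefSeq starts in GRCm38.p6, and capitals mark a GC box (GGGCGG) or a CCAAT box on either strand.
Lpin3 upstream start, chr2:160880420-160880669, plus strand: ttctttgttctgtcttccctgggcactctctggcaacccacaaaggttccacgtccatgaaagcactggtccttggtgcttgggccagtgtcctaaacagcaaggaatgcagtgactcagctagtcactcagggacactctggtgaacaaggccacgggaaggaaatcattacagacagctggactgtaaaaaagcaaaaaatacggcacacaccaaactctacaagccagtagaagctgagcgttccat
Lpin3 downstream start, chr2:160887918-160888167, plus strand: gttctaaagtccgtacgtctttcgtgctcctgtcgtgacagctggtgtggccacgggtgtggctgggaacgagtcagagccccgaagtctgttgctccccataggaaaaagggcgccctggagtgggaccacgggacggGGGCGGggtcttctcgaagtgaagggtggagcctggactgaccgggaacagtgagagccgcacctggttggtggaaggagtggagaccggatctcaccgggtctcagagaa
Fads2, chr19:10101504-10101753, minus strand: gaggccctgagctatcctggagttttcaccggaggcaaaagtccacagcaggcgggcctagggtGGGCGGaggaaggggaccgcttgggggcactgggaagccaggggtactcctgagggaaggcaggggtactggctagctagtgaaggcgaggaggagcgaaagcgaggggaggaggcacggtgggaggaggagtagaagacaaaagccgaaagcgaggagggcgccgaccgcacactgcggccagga
Pnpla3, chr15:84167566-84167815, plus strand: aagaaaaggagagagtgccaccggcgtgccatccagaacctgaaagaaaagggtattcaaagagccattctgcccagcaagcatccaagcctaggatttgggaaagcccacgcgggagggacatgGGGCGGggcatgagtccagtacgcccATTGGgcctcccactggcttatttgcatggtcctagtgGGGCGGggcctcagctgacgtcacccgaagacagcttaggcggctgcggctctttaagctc
The Pnpla3 window held 2 GC boxes and 1 CCAAT box, those of Fads2 and the downstream Lpin3 start 1 GC box each, and the upstream Lpin3 window neither. None of the 4 held the sterol regulatory element searched (TCACNCCAC) or the E-box CACGTG, on either strand. Windows were found for 29 of 35 members, 40 in all; Dgat1, Dgat2, Elovl3, Fads1, Scd1 and Scd2 had none. The GC box was in 25 of 40 member windows (62.5%) and 32.7% of all 32851 windows, and the CCAAT box in 17 (42.5%) and 33.8%. The E-box was in 4 (10%) and 6.02%, and the sterol regulatory element in 1, that of Mlxipl, and 1.05%. These matches describe letters in the windows and show no binding.

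None of the 35 genes was called in the Acly comparison, in which few genes of any kind were called. edgeR called 0 of 35 members beside 0.136% of all 13973 genes tested (0.0573% higher, 0.0787% lower), a share at which no call among 35 genes says nothing particular about them, with 8 members at an unadjusted p under 0.05 (4 higher, 4 lower) beside 15.8% of all genes. DESeq2 called 1, Elovl7, beside 253 of all genes. The members' median log2 fold change was 0.04 against -0.0018 for all genes, 25 of 35 lay within ±0.25 beside 66.9% of all genes, and 9 (4 higher, 5 lower) did not overlap between groups beside 22.0% (10.7% and 11.3%).

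None of the 6 genes of malonyl-CoA and NADPH supply with the synthase was called in the Acly comparison by edgeR or DESeq2. Of all genes edgeR called 0.136%. By edgeR 1 of the 6, Mid1ip1, had an unadjusted p under 0.05, beside 15.8% of all genes. Fasn stood at 276, 254 and 283 CPM in Acly knockouts and 271, 246 and 240 CPM in controls (log2 fold change 0.10 ± 0.09, SE). Acaca stood at 144, 112 and 128 CPM against 119, 125 and 126 CPM (0.05 ± 0.11). Me1 stood at 160, 180 and 147 CPM against 146, 146 and 155 CPM (0.12 ± 0.10). All 3 overlapped between groups. Mid1ip1 stood at 63.7, 83.9 and 70.4 CPM against 60.2, 57.5 and 57.1 CPM. Its knockouts lay above the controls, with knockout 2 highest (log2 fold change 0.32 ± 0.11, unadjusted p = 0.018, adjusted p = 0.264). Thrsp, at 0.855, 0.474 and 0.448 CPM against 0.782, 0.257 and 0.262 CPM, overlapped, as did Acacb (log2 fold change 0.12).

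Elongation held the member with the lowest p in the Acly comparison. Elovl7 stood at 5.35, 5.21 and 3.25 CPM in knockouts and 7.41, 12.2 and 9.06 CPM in controls. The groups did not overlap, and the log2 fold change was -1.05 ± 0.25 (edgeR, unadjusted p = 0.00227, adjusted p = 0.187; DESeq2, adjusted p = 0.00799). On FPKM with a pseudocount of 1 it was -0.61. Tecr stood at 270, 360 and 305 CPM against 267, 255 and 234 CPM, with knockout 2 highest. Its log2 fold change was 0.31 ± 0.12 (adjusted p = 0.285), and 0.19 without knockout 2. Elovl4, which makes very long chains in skin and retina, stood at 7.99, 6.51 and 6.72 CPM against 8.94, 9.57 and 8.87 CPM. All its knockouts lay below the controls (log2 fold change -0.37, adjusted p = 0.293). The other 8 elongation genes overlapped between groups, with log2 fold changes from -0.16 to 0.64. The last was for Elovl2 at 0.0789 to 0.784 CPM, in part below the level of 3 counts and so uncertain.

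None of the 5 desaturation genes was called in the Acly comparison by edgeR or DESeq2. Of all genes edgeR called 0.136%. By edgeR 1 of the 5, Fads1, had an unadjusted p under 0.05, beside 15.8% of all genes. Scd1 stood at 167, 130 and 143 CPM in Acly knockouts and 172, 150 and 178 CPM in controls, with overlap (log2 fold change -0.18 ± 0.11, adjusted p = 0.435). Scd2 stood at 181, 100 and 171 CPM against 180, 208 and 185 CPM. Knockout 2 alone lay far below, and the log2 fold change of -0.34 became -0.12 without it. Fads1 stood at 121, 115 and 125 CPM against 104, 103 and 101 CPM. Its groups did not overlap and each was tight (log2 fold change 0.23 ± 0.08, unadjusted p = 0.0175, adjusted p = 0.263). Fads2 stood at 35.7, 23.2 and 29.5 CPM against 23.7, 26.3 and 23.9 CPM, with knockout 2 below all controls and the other knockouts above them (log2 fold change 0.26, 0.41 without knockout 2 and 0.10 without knockout 1). Fads3 differed by 0.22 ± 0.12, with overlap. Acly knockout 2 was also lowest in the fat cell sum, at 288 CPM against 464 and 579 CPM, and in the fibroblast sum. The part of these markers in the result was not tested. The 3 regulators overlapped between groups, with log2 fold changes of 0.04 for Srebf1, 0.10 for Mlxipl and -0.10 for Mlxip.

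Among assembly genes, Lpin1 stood at 30.8, 36.7 and 32.1 CPM in Acly knockouts and 25.7, 24.8 and 24.2 CPM in controls. Its knockouts lay above the controls, with a log2 fold change of 0.41 ± 0.10 (unadjusted p = 0.00295, adjusted p = 0.2). Lpin2 stood at 28.4, 25.3 and 29.2 CPM against 31.6, 32.9 and 33.9 CPM, and Lpin3 at 3.94, 2.88 and 4.37 CPM against 4.69, 7.33 and 5.13 CPM. Both lay below their controls in every knockout without being called (log2 fold changes -0.25 and -0.62, adjusted p = 0.289 and 0.285). The Lpin3 value was -0.40 without control 2 and -0.38 on FPKM with a pseudocount of 1. Gpam stood at 24.1, 24.3 and 23.3 CPM against 25.8, 27.3 and 27.7 CPM, again without overlap (log2 fold change -0.17, adjusted p = 0.379). Agpat1, Agpat2, Agpat3, Dgat1, Dgat2 and Pnpla3 overlapped between groups, with log2 fold changes from -0.04 to 0.24.

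**Figure D3:**
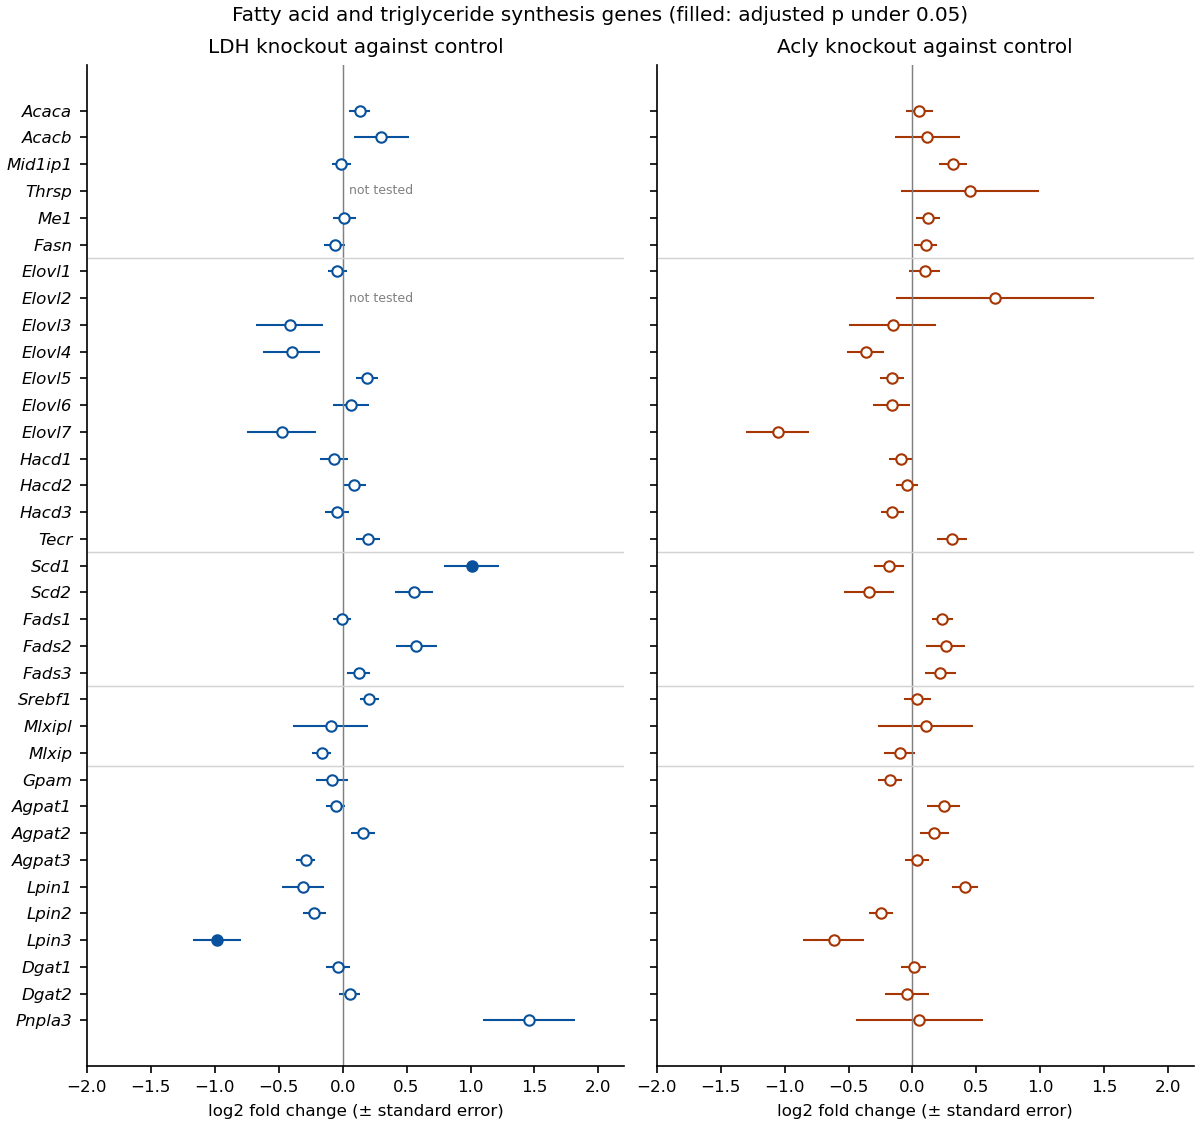
Log2 fold change of each of the 35 genes, knockout against its own control, with its standard error; rows are ordered by role, with grey lines between roles, and filled points passed adjusted p under 0.05. Scd1 (1.01) and Lpin3 (-0.98) in the LDH comparison are the filled points, and no Acly point is filled.

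Whether the knockout comparisons differed was tested as the difference of both effects in a fit of all 12 samples. edgeR called 0 of 35 members beside 0.161% of all 14251 genes (0.0912% higher, 0.0702% lower), with 8 members at an unadjusted p under 0.05 beside 13.0% of all genes. DESeq2 called 1, Scd1 (adjusted p = 0.00533), beside 213 of all genes. Scd1 had the lowest edgeR p of the members: the LDH effect exceeded the Acly effect by 1.21 ± 0.28 on the log2 scale (unadjusted p = 0.000858, adjusted p = 0.119). Lpin1 and Scd2 came next. Scd2 differed by 0.91 ± 0.28 (adjusted p = 0.243) and Lpin1, lower in LDH knockouts and higher in Acly knockouts by value, by -0.70 ± 0.21 (adjusted p = 0.217). Pnpla3 differed by 1.42 ± 0.65 (adjusted p = 0.376). For Lpin3, below control in all 6 knockout samples, the difference was -0.36 ± 0.32 (adjusted p = 0.634). Without LDH knockout 3, edgeR called Scd1 and Lpin1. The count over all genes also moved when a sample was left out, as given with the alternatives below. The deleted gene and the age coincide in this design and cannot be told apart.

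The largest contrasts among the 35 genes lay between the control groups, which differ in age, mouse line and any batch together. Acly controls at embryonic day E18.5 differed from LDH controls at postnatal day 5 in 19 of 35 members, 10 higher and 9 lower, beside 55.0% of all 14251 genes (29.4% higher, 25.7% lower). No overlap between groups was seen in 13 members higher and 10 lower, beside 34.7% and 30.7% of all genes. Thrsp, which passed the low-count filter only through the Acly samples, is among the higher members in both counts. With counts scaled to library totals alone the split was 16 higher and 4 lower of 20, and that scaling moved the median of all genes from 0.02 to 0.19 on the log2 scale. All 5 desaturases were called. Scd2 was 4.55-fold higher in Acly controls, at 172, 197 and 176 CPM against 47.2, 38.8 and 33.6 CPM (CPM scaled over all 12 samples; log2 fold change 2.18, adjusted p = 2.84e-06). Scd1 was higher by 0.79, Fads2 by 0.87 and Fads1 by 0.17 on that scale, and Fads1 lost its call in 12 of 16 alternatives. Fads3 went the other way, at 158, 155 and 172 CPM against 336, 322 and 358 CPM (log2 fold change -1.06, adjusted p = 3.92e-06).

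Of the elongases, Elovl6 was 2.31-fold higher in Acly controls, at 30.0, 33.5 and 30.6 CPM against 13.7, 15.8 and 11.1 CPM (adjusted p = 3.36e-05). Elovl5 was higher by 0.63 and Tecr by 0.43 on the log2 scale. Elovl3, an elongase typical of brown fat and skin, was lower, at 0.710, 1.01 and 0.923 CPM against 1.86, 2.06 and 3.12 CPM (log2 fold change -1.41, adjusted p = 0.00128). Lpin3 was lower by 1.25 and Lpin1 by 0.77 (log2 fold changes -1.25 and -0.77), with no overlap between groups. Thrsp was at 0.746, 0.243 and 0.249 CPM in Acly controls and 0.0373, 0 and 0 CPM in LDH controls. It passed the low-count filter only through the Acly samples, where it is higher. Its call (edgeR, adjusted p = 0.00202) is therefore no support for a difference. Its LDH control level is below that of 3 counts, so no fold is given. Of 11 tested genes on the fat cell list, 10 were called higher in Acly controls, beside 29.4% of all genes, where the list summed to 334 to 393 CPM against 72.1 to 85.5 CPM in LDH controls, each scaled within its set. The 5 fibroblast markers were all higher too. So were 5 of 5 skeletal muscle, 4 of 4 endothelial, 3 of 4 tested osteoblast and 3 of 4 tested red blood cell markers. Of chondrocyte markers, 6 of 10 were called higher and 1 lower. Of macrophage and leukocyte markers, 3 of 5 were called higher and 1 lower. The part of these markers in the result was not tested.

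**Figure D4:**
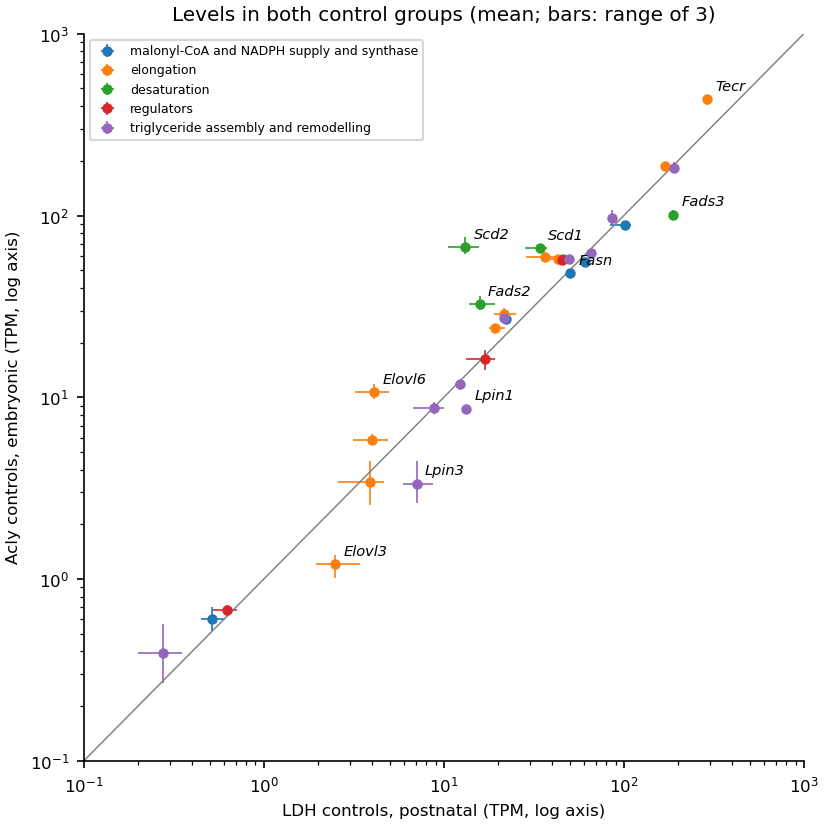
Mean TPM of 33 members in LDH controls (horizontal, log axis) and Acly controls (vertical, log axis), coloured by role, with bars for the range of 3 samples; the grey line marks equal levels. Scd2, Elovl6 and Fads2 lie above the line, and Fads3, Lpin3, Lpin1 and Elovl3 below it. Elovl2 and Thrsp, with samples at 0 TPM, are left out. TPM is scaled to library totals. With counts scaled that way, the median of all genes was 0.19 higher in Acly controls on the log2 scale, against 0.02 with TMM scaling.

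The balance within gene families, taken as shares of the family's summed TPM, differed between the sets more than between knockout and control for the desaturases. Scd1 made up 70.0%, 74.0% and 72.7% of Scd TPM in LDH controls and 76.4%, 80.8% and 74.9% in LDH knockouts, with every knockout above every control. In Acly controls it was 51.9%, 45.0% and 52.0% and in Acly knockouts 51.0%, 59.4% and 48.6%. Scd2 therefore made up a mean of 27.8% of the pair in LDH controls and 50.4% in Acly controls. Fads3 held 75.4% ± 1.63 of Fads TPM in LDH controls and 52.9% ± 1.86 in Acly controls (SD, n = 3). Fads2 held 6.33% ± 1.08 in LDH controls, 8.58% ± 1.03 in LDH knockouts and 17.1% ± 1.13 in Acly controls.

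Lpin3 held 21.0%, 24.5% and 19.2% of lipin TPM in LDH controls and 15.3%, 12.9% and 14.5% in LDH knockouts, so its share of the family was also lower, without overlap. In the Acly set the lipin whose share grew by value was Lpin1, from 39.0%, 34.7% and 35.7% in controls to 45.7%, 53.7% and 46.7% in knockouts. Agpat3 held 21.6%, 21.6% and 21.1% of Agpat TPM in LDH controls and 17.5%, 17.9% and 19.2% in LDH knockouts. Acaca held at least 97.2% of carboxylase TPM in every sample, and Elovl1 held 66.9% to 80.4% of Elovl TPM. These shares are descriptions of the deposited TPM values and were not tested.

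**Figure D5:**
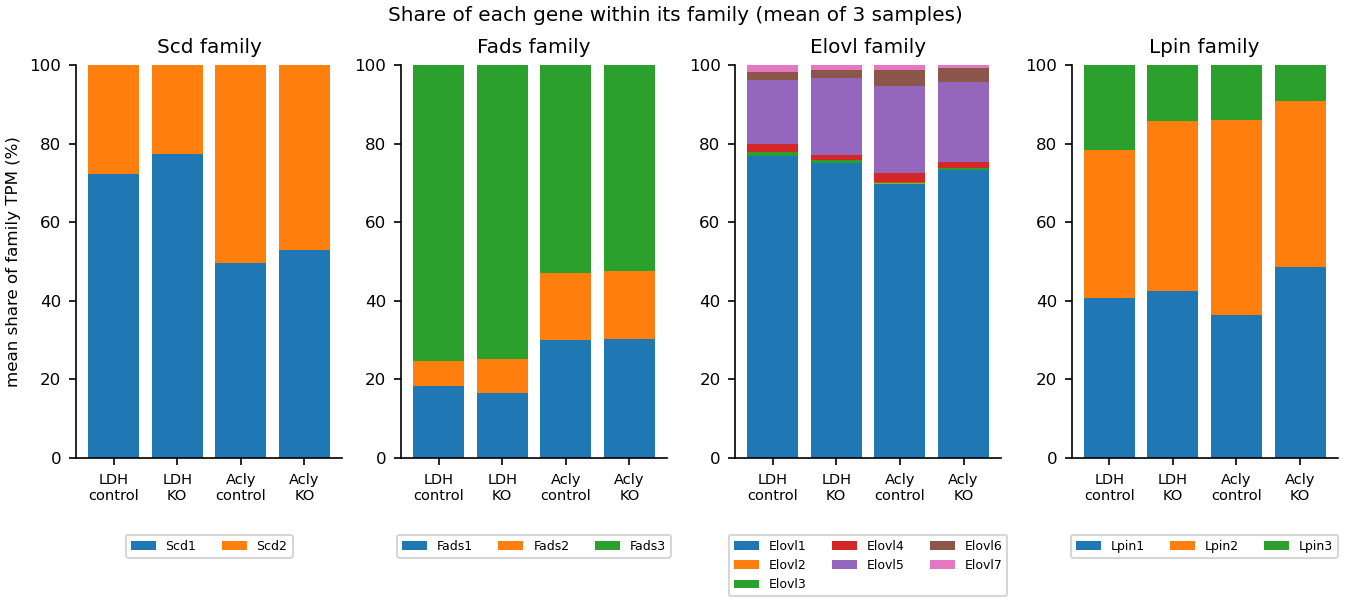
Mean share in percent of each gene in the summed TPM of the Scd, Fads, Elovl and Lpin families, in the 4 groups (mean of 3 samples). Scd2 takes 27.8% of Scd TPM in LDH controls and 50.4% in Acly controls, and Fads3 takes 75.4% and 52.9% of Fads TPM.

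A list of 71 other genes around the pathway was read from the same fits. In the LDH comparison 65 were tested, of which 3 were called higher and 0 lower, beside 2.49% of all genes; 19 had an unadjusted p under 0.05 beside 19.6%. The 3 were Gpd1, which makes glycerol 3-phosphate, Plin4, a lipid droplet coat protein, and Fabp4, a fatty acid carrier that is also on the fat cell list. Gpd1 stood at 19.0, 32.2 and 9.73 CPM in LDH knockouts and 2.46, 1.94 and 2.67 CPM in controls (log2 fold change 3.11, adjusted p = 0.00716). Plin4 stood at 10.8, 13.8 and 6.03 CPM against 2.04, 1.34 and 2.18 CPM (2.46, adjusted p = 0.00716), and Fabp4 at 11.5, 25.3 and 6.14 CPM against 1.37, 0.742 and 1.43 CPM (3.60, adjusted p = 0.00945). In all 3, knockout 2 was highest and knockout 3 lowest, the same order as in the fat cell and cartilage sums; the part of those cells in the result was not tested.

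Near the threshold were Acss2, which makes acetyl-CoA from acetate (log2 fold change 0.84, adjusted p = 0.0573), and G6pdx, the enzyme that starts NADPH supply by the pentose phosphate route (0.40, adjusted p = 0.0566). Of 8 genes of SREBP control none was called, with 3 at an unadjusted p under 0.05 by edgeR, beside 2.49% and 19.6% of all genes. Among them Nr1h3, the liver X receptor alpha, differed by 0.78 (adjusted p = 0.0946) and Insig1, which holds SREBP in the endoplasmic reticulum, by -0.40 (adjusted p = 0.117). Of 15 sterol genes none was called and 5 had an unadjusted p under 0.05 by edgeR, 2 higher and 3 lower, beside the same shares of all genes. Msmo1, a sterol oxidase, differed by -0.34 (adjusted p = 0.0946).

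In the Acly comparison 66 of the 71 were tested and 1 was called, Acly itself, beside 0.136% of all genes; 12 had an unadjusted p under 0.05 beside 15.8%. Slc25a1, the mitochondrial citrate exporter, stood at 57.0, 61.8 and 52.0 CPM in knockouts and 51.9, 48.0 and 47.8 CPM in controls, without overlap (log2 fold change 0.21, adjusted p = 0.324). Acss2, the other source of cytoplasmic acetyl-CoA, stood at 7.54, 5.25 and 7.35 CPM against 5.29, 5.72 and 5.95 CPM, with overlap (0.25, adjusted p = 0.497). Plin4 stood at 18.2, 16.4 and 16.5 CPM against 9.91, 6.64 and 9.25 CPM, without overlap (0.99, adjusted p = 0.0859). None of the 15 sterol genes was called, and 1 had an unadjusted p under 0.05 (edgeR).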

How the data were processed

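RNA-seq of 12 samples in 4 groups was read from 1 deposited table. Per the submitters' processing notes HISAT2 2.0.4 and mm9 were used, with no role stated; the counting program, annotation and use of strand are not given in the sources used here. The authors deposited read counts that are not all whole, so these expected counts were rounded and entered into edgeR 4.0.16 (R 4.3.3; TMM, filterByExpr, two-sided quasi-likelihood F test, Benjamini-Hochberg over all genes, threshold 0.05). The standard error is the log2 fold change over the square root of F. CPM levels are TMM-scaled within each set of 6 samples, and over 12 for control groups. The deposited TPM values were used for levels between genes and the deposited FPKM values for an alternative fit in limma 3.58.1; DESeq2 1.42.0 was another alternative. The scripts were tested on simulated data.

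Genes given full statistics were those past the threshold in either knockout comparison or their difference, and the 6 with the lowest p in each knockout comparison. The members and gene lists were chosen with earlier results of these data known. Counts of 3 set the floor, for counting error only. Transcript sharing was read from GENCODE M21: 30.4% of Acaca, 24.9% of Hacd1 and 22.9% of Me1 sequence, in stretches of 50 bases, is shared with other genes. Their counts were whole in every sample, but how shared reads were counted is not given, so their values are uncertain in part. Sequences come from RefSeq, GRCm38.p6; no coordinates were converted.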

Additional observations from a re-analysis of the deposited data

How the results depend on the processing

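In the LDH comparison 2 members were called; DESeq2 called 6, the FPKM fits with pseudocounts of 0.1 and 1 called 1 each, the fit with Y-linked signal as a covariate 0 (7 at an unadjusted p under 0.05 by edgeR), and leaving out each sample in turn 0 to 7. Over all genes the LDH count of 332 became 902 with DESeq2, 3 with the Y-linked covariate, and 95 to 1068 with a sample left out. In the Acly comparison 0 members were called by edgeR and 1 by DESeq2; the count of 19 genes in all became 253 with DESeq2, 11 without TMM scaling, 32 without a low-count filter, 31 in the fit of all 12 samples, 6 with the Y-linked covariate and 0 to 132 with a sample left out. For the difference of effects, 0 members became 1 with DESeq2 and 0 to 2 with a sample left out, and 23 genes in all became 213 with DESeq2 and 5 to 143 with a sample left out. Replicate numbers gave no sign of pairing (correlations of same-numbered deviations from -0.281 to 0.0628); the replicate block called 3 members in the LDH comparison and 0 in the Acly comparison and the difference by edgeR (3 and 5 at an unadjusted p under 0.05), and 362, 8 and 5 genes in all. In the control groups 14 to 20 members were called.

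Of 778 refits of 48 single-gene results, 718 kept direction and side of the threshold, 29 lost the call, 14 gained it and 17 changed sign; the cause was not tested. Most sign changes were of values near 0, except LDH Elovl7 (-0.48 in the reported fit) and Pnpla3 between control groups (0.32): LDH Mid1ip1 -0.041 to 0.020 and Fads1 -0.029 to 0.023 with a sample left out, Fads1 0.060 and Elovl7 0.32 with the Y-linked covariate; Acly Agpat3 -0.018 without TMM scaling, -0.040 and -0.039 in the FPKM fits with pseudocounts of 0.1 and 1, and -0.043 to 0.085 with a sample left out; Acly Pnpla3 -0.015 with FPKM and pseudocount 0.1 and -0.21 to 0.46 with a sample left out; the difference for Tecr -0.17 to 0.013 and the control groups for Pnpla3 -0.076 to 0.56, both with a sample left out. Among the other members 11 of 22 (LDH), 10 of 24 (Acly), 12 of 24 (difference) and 6 of 24 (control groups) changed sign under some alternative, and calls changed for 0, 0, 0 and 13. With 3 samples a group and Y-linked signal at most 0.0367 CPM in every LDH knockout, group and that signal are partly confounded.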

Other observations

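Genes around the pathway also differed between the control groups, which differ in age and line together. Of 67 tested, 24 were higher and 16 lower in Acly controls at embryonic day E18.5 than in LDH controls at postnatal day 5, beside 55.0% of all genes called (29.4% higher, 25.7% lower); scaled to library totals alone, 31 were higher and 9 lower. Of 8 genes of fatty acid uptake and binding, 6 were higher, beside 29.4% of all genes. Lpl, the lipase that frees fatty acids from circulating triglyceride, stood at 211, 221 and 227 CPM against 36.5, 46.6 and 30.5 CPM (log2 fold change 2.54, edgeR adjusted p = 2.68e-06), and Fabp5, a fatty acid carrier, at 23.6, 20.5 and 19.0 CPM against 3.88, 3.52 and 4.22 CPM (2.44, adjusted p = 3.09e-06). Lpl is also on the fat cell list.

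Of 15 sterol genes, 6 were lower and 2 higher in Acly controls, beside 25.7% and 29.4% of all genes; the 8 called are a share near that of all genes. Msmo1 stood at 46.7, 58.5 and 59.2 CPM against 93.5, 113 and 93.6 CPM (log2 fold change -0.87, edgeR adjusted p = 3.11e-05), and Lss, which closes the sterol rings, at 21.9, 22.5 and 24.2 CPM against 36.8, 39.2 and 39.2 CPM (-0.75, adjusted p = 6.35e-05). Dhcr7, the last reductase of cholesterol synthesis, went the other way, at 17.2, 15.6 and 13.9 CPM against 8.58, 10.4 and 8.92 CPM (0.74, adjusted p = 0.000748). In lipid droplet genes, G0s2, an inhibitor of lipolysis, was higher (1.70) and Pnpla2, the triglyceride lipase it inhibits, was lower (-0.90). These genes were chosen after their values were seen.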
